A study of Saccharomyces cerevisiae with 18 samples.

Results

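The simultaneous depletion of Med16 and Spt20 was followed in the 6 nsRNA-seq libraries of the Med16/Spt20-AID strain, out of 18 libraries in the series. They were chosen by the strain and treatment that the labels give. The strain is a W303 derivative of *S. cerevisiae* and a MATa haploid. It carries ura3-1, trp1-1, ade2-1, can1-100, his3-11,15 and leu2-3,112, and expresses the plant auxin receptor OsTIR1 from pGPD1 at the leu2 locus with a LEU2 marker. Med16 is tagged with 3V5-IAA7 (kanMX6 marker) and Spt20 with 3xHA-IAA7 (HIS3 marker). IAA7 is the auxin-inducible degron (AID), which leads the tagged protein to the proteasome when auxin binds OsTIR1. In each of 3 replicates, a YPD culture was split and given 0.5 mM 3-IAA, an auxin, or DMSO, its solvent, for 30 min. RNA made during a further 6 min was labeled with 4-thiouracil (4tU), so that the newly synthesized RNA (nsRNA) reads out transcription and not the RNA stock. There were thus 3 3-IAA libraries and 3 DMSO libraries, and the libraries with the same number came from the same culture. For reference, 6 libraries of the Spt20-AID strain were used, which has the same background and OsTIR1 construct, has only Spt20 tagged, and was treated in the same way. No strain without a degron was used here, so depletion and a response to the auxin alone cannot be told apart, and the loss of the proteins was not measured in these libraries.

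SAGA is a coactivator that acetylates and deubiquitinates histones and delivers the TATA-binding protein (TBP) to promoters, and Spt20 is a core subunit that holds it together. Mediator carries signals from activators to RNA polymerase II, and Med16 joins its tail, which contacts activators, to the rest of the complex. Genes known for a strong dependence on both complexes tend to have a TATA box and to respond to stress or nutrients, whereas most housekeeping genes lack a TATA box and rely on TFIID.

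Between 4448568 and 4877296 reads per library fell on the sense strand of genes in 3-IAA cells, and 4209319 to 6189719 in DMSO cells. The 10 most abundant genes took 2.96 to 3.05% of these reads in 3-IAA cells and 4.22 to 4.55% in DMSO cells. Reads mapping to several places, which were not counted on genes, made up 53.5 to 54.0% of all reads in 3-IAA cells and 43.1 to 46.2% in DMSO cells, and the part of this in the results was not tested. Values below are sense counts scaled by TMM factors (trimmed mean of M-values), so a change is relative to the typical gene. In MATa cells, the alpha-factor genes MF(ALPHA)1 and MF(ALPHA)2 had 0 to 5 reads per library in 3-IAA cells and 1 to 10 in DMSO cells. Other markers were less clear. The alpha-cell genes STE3 and SAG1 had 81.1 to 106 and 155 to 201 normalized counts per library, and the a-cell gene BAR1 had 0 to 0.93. SIN4, which encodes Med16, had 1075, 1169 and 1109 normalized counts in 3-IAA cells and 994, 1083 and 1107 in DMSO cells, and its log2 fold change of 0.07 ± 0.06 (SE) did not pass the test (edgeR adjusted p = 0.297). SPT20 had 905, 873 and 883 normalized counts in 3-IAA cells and 825, 816 and 751 in DMSO cells, a log2 fold change of 0.16 ± 0.06 (SE) (edgeR adjusted p = 0.0387) that missed the threshold under 7 of 14 alternatives, among them the fits without replicate 1 or 3. A tagged gene is still transcribed, so these levels do not check the depletion of the proteins.

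Many genes tied to stress, sugar use, redox defense, drug efflux, the cell cycle and the cell wall were downregulated. Genes that were upregulated rose by little. They included many of the respiratory chain and the spliceosome, and 12 of 37 genes of the polymerases that make rRNA and tRNA. Of 5690 tested genes, 1381 (24.3%) were downregulated and 1234 (21.7%) were upregulated at an adjusted p under 0.05 in edgeR's paired quasi-likelihood test. Among downregulated genes the log2 fold change was -0.52 at the median, with an interquartile range of -0.96 to -0.29. The upregulated genes had a median of 0.26 with an interquartile range of 0.19 to 0.35. A change of at least 2-fold was found for 320 downregulated genes, against 15 upregulated genes. When the test asked for a change beyond 1.5-fold, 465 genes were downregulated and 14 upregulated. In 1291 of the 1381 downregulated genes the 3-IAA libraries lay outside the range of the DMSO libraries, as did 1005 of the 1234 upregulated genes. Over all tested genes, 25.2% did not overlap with lower values in 3-IAA cells and 23.0% with higher values. The median over all tested genes was 0.03 with TMM and 0.31 with the *S. pombe* spike-in scaling recovered from the study's own table. The spike-in scaling moved this median up by 0.28 and called 534 genes lower and 1792 higher. Of the genes downregulated with TMM, 336 changed sign with it, whereas 0 of the upregulated genes did. Without replicate 1 the test called 738 genes upregulated and without replicate 3 it called 707.

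**Figure D1:**
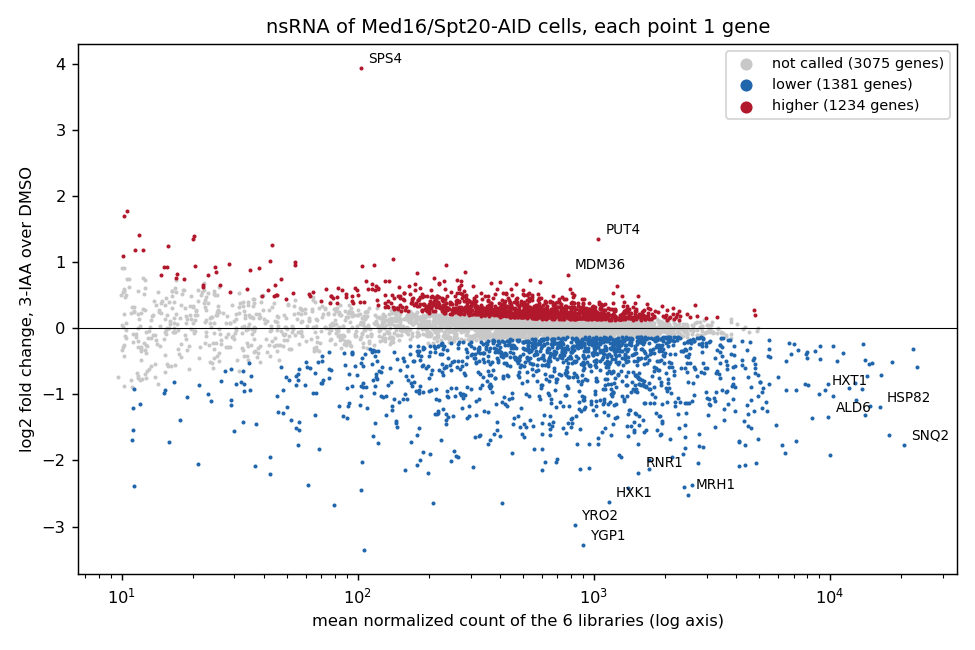
Each point is 1 tested gene of Med16/Spt20-AID cells, with its mean normalized count over the 6 libraries on a log axis and the log2 fold change of 3-IAA over DMSO. Blue points are the 1381 downregulated genes, red points the 1234 upregulated genes and gray points the genes not called. The decreases spread further from 0 than the increases, and SPS4, at 3.93, stands alone at the top.

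The promoters of 6 genes are printed because they show the elements counted below in the promoters of each group. The stretch shown runs from 250 to 91 bases before the first coding base, 5′ to 3′ on the gene's own strand, in the R64 assembly (sacCer3). In YGP1 and HXK1, which fell more than most genes, the capitals mark the TATA element, and neither stretch holds a stress response element. In TSL1, of trehalose synthesis, they mark 2 TATA elements and 3 stress response elements. In OSI1 they mark the TATA element and 5 Yap1 sites, in HSP82 the TATA element and a heat shock element, and in BUD23, a ribosome biogenesis gene that rose, the PAC motif.
YGP1, chrXIV:336295-336454, + strand: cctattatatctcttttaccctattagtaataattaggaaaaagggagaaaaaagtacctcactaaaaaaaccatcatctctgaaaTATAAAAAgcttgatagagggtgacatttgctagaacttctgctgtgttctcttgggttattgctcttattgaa
HXK1, chrVI:255140-255299, - strand: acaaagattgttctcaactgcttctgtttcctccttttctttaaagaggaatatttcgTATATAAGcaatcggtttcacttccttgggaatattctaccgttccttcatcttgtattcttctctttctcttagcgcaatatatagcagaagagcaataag
TSL1, chrXIII:70374-70533, + strand: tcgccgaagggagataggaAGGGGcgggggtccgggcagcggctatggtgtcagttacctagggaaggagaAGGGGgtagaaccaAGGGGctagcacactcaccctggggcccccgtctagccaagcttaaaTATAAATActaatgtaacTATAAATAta
OSI1, chrXI:304864-305023, + strand: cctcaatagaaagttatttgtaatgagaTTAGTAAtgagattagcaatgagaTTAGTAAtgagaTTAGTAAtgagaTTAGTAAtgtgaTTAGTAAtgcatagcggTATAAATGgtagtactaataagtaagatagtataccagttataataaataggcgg
HSP82, chrXVI:98716-98875, - strand: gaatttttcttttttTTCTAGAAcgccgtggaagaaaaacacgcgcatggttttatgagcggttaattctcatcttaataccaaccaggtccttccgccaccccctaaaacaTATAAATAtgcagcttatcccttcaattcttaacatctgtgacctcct
BUD23, chrIII:211636-211795, - strand: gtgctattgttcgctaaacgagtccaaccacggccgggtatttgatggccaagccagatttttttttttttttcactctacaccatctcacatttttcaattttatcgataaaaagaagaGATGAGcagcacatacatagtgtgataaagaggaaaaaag

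Motifs were searched on both strands from 250 bases before to 50 after the first coding base of each gene. The TATA element was any of TATAAAAA, TATAAAAG, TATAAATA, TATAAATG, TATATAAA, TATATAAG, TATATATA and TATATATG, which can overlap one another. It was found in 37.9% of all 6004 promoters. Among tested genes it was in 50.1% of the promoters of downregulated genes, 33.7% of those of genes not called and 32.1% of those of upregulated genes. Genes downregulated at least 2-fold held it in 66.3% of 312 promoters, and genes upregulated at least 1.5-fold in 49.2% of 65 promoters. The decile of genes with the lowest log2 fold changes, with a median of -1.07, held it in 62.5% of promoters, and the decile with the highest, with a median of 0.39, held it in 38.9%. The stress response element AGGGG, the site of Msn2 and Msn4, was less uneven over the called groups. It was in 24.8% of downregulated, 22.1% of uncalled and 17.8% of upregulated genes, against 21.6% of all promoters. Among the larger changes the order was reversed, with 25.96% of genes downregulated at least 2-fold and 40% of 65 genes upregulated at least 1.5-fold. Among genes with both elements 38.5% were downregulated, against 31.3% with the TATA element alone, 21.0% with the stress response element alone and 19.2% with neither. Motifs other than these 2 were added after the data had been seen, and a match says only that the letters are in the window.

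**Figure D2:**
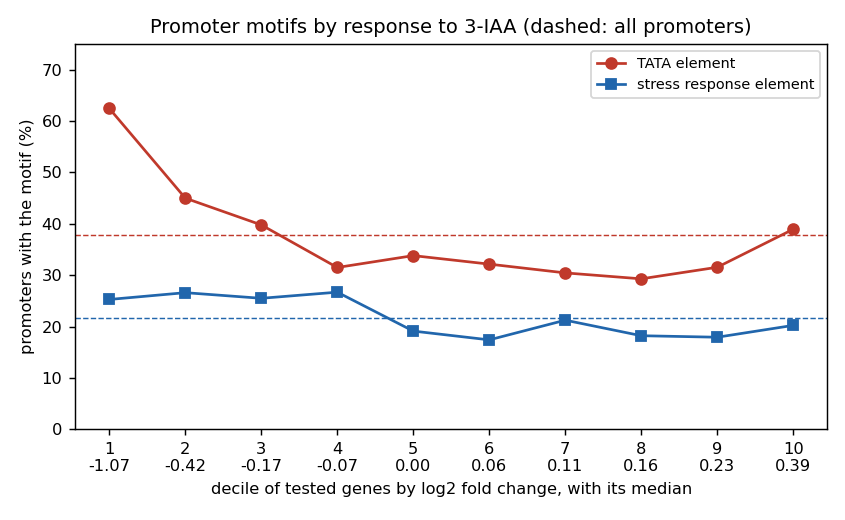
The horizontal axis gives the deciles of the tested genes by log2 fold change of 3-IAA over DMSO, from the largest decrease at 1, with the median of each decile below its number. The vertical axis gives the percentage of promoters with the TATA element or the stress response element, and dashed lines mark all promoters. The TATA element is in 62.5% of promoters in decile 1 and in 29.3% in decile 8.

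Genes of the general stress response, of the type controlled by Msn2 and Msn4, were among the largest single decreases. Their control by these factors was not tested, and 68.5% of the promoters of the list held the stress response element. Of 53 tested, 35 fell and 2 rose, with a median log2 fold change of -0.54. YGP1, which encodes a secreted glycoprotein induced by nutrient stress, had 173, 154 and 177 normalized counts in 3-IAA cells, against 1544, 1615 and 1751 in DMSO cells. Its log2 fold change was -3.28 ± 0.07 (SE) (edgeR adjusted p = 1.32e-22) and the groups were far apart. YRO2 and MRH1 encode related membrane proteins. YRO2 had 188, 168 and 205 normalized counts in 3-IAA cells, against 1588, 1357 and 1479 in DMSO cells, and MRH1 had 795, 672 and 766 in 3-IAA cells, against 4329.7, 3897 and 4549 in DMSO cells. DDR48, a DNA damage and heat stress gene, changed by -2.13 ± 0.07 (SE) on the log2 scale. Antisense reads bear on YGP1, where they were 54.7% of the reads over the gene in 3-IAA cells and 6.63% in DMSO cells. In normalized counts they averaged 202.6 in 3-IAA cells and 117.9 in DMSO cells.

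The largest decrease of all named genes was that of ARO10. ARO10, a decarboxylase of the Ehrlich pathway that breaks down aromatic amino acids, had 19.6, 17.8 and 19.4 normalized counts in 3-IAA cells, against 236, 188 and 159 in DMSO cells. The aminotransferase gene ARO9 of the same pathway changed by -1.90 ± 0.11 (SE) on the log2 scale, and 5 of the 10 genes of the pathway fell while none rose. The other large decreases were YLR297W (-2.65), YDR222W (-2.65), NFG1 (-2.45), OSI1 (-2.41), YCR102C (-2.40) and CRF1 (-2.37), in log2 units. OSI1, whose promoter is printed above, had 478, 413 and 427 normalized counts in 3-IAA cells, against 2227, 2177 and 2632 in DMSO cells. Antisense reads were 94.5% of the reads over CRF1 in 3-IAA cells and 80.1% in DMSO cells, and 88.2% of those over ARO10 in 3-IAA cells and 43.8% in DMSO cells. They were 73.1% at YDR222W in 3-IAA cells and 34.5% in DMSO cells, and 55.6% at NFG1 in 3-IAA cells and 18.4% in DMSO cells. Such a share also rises when only the sense reads fall. Normalized antisense counts averaged 342 at CRF1, 141.7 at ARO10, 155.4 at YDR222W and 39.6 at NFG1 in 3-IAA cells. In DMSO cells they averaged 416.5, 146.6, 187.5 and 40.0 in the same order, so they did not rise at these genes.

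Glycolytic genes fell with 1 exception. Of the 18 glycolytic genes, 17 were downregulated and 1 was upregulated, with a median log2 fold change of -0.85 that was -0.77, -0.89 and -0.86 in the 3 pairs. HXK1, the hexokinase made when glucose runs low, had 291, 331 and 341 normalized counts in 3-IAA cells, against 1933, 2060.4 and 1955 in DMSO cells, a log2 fold change of -2.63 ± 0.07 (SE) (edgeR adjusted p = 1.94e-20). The minor glyceraldehyde phosphate dehydrogenase gene TDH1 had 918, 827 and 888 in 3-IAA cells, against 3124, 3085 and 4003 in DMSO cells. The glucokinase gene GLK1 changed by -1.09 ± 0.08 (SE) and the phosphofructokinase gene PFK1 by -1.07 ± 0.06 (SE) on the log2 scale. The exception was PYK2, the pyruvate kinase used at low glycolytic flux, which rose by 0.50 ± 0.06 (SE). Reads shared by near-identical copies such as the TDH genes were not counted, so levels of such copies are uncertain.

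Many genes of glycerol metabolism and of fermentation and acetate fell as well. GPD1, the enzyme that commits sugar to glycerol, had 791, 887 and 842 normalized counts in 3-IAA cells, against 4038, 4501 and 4486 in DMSO cells, a log2 fold change of -2.37 ± 0.06 (SE) (edgeR adjusted p = 2.34e-21). The glycerol phosphatase gene GPP2 changed by -1.18 ± 0.09 (SE), and 7 of 13 genes of glycerol metabolism and osmotic stress fell while none rose (median -0.29). Scaled by the spike-in, 3 were lower and 3 higher, at a median of -0.01. Of 18 genes of fermentation and acetate, 11 fell and none rose (median -0.88). They included the alcohol dehydrogenase gene ADH6 (-1.89) and the aldehyde dehydrogenase genes ALD4 (-1.48) and ALD6 (-1.34), in log2 units. Of 16 tested hexose transport genes, 8 fell and 2 rose, or 5 and 2 with the spike-in scaling. Relative to all tested genes their median was -0.53, and -0.12 when both strands were counted. HXT3, a low-affinity glucose transporter, had 2678, 2774 and 3053 normalized counts in 3-IAA cells, against 8658, 10266 and 9924 in DMSO cells. HXT1 changed by -0.94 ± 0.06 (SE) and HXT7, whose near-identical copy HXT6 shares reads with it, by -1.32 ± 0.17 (SE).

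Storage carbohydrate genes fell less. Of 22 genes of trehalose and glycogen, 16 were downregulated and none upregulated, with a median of -0.33. The spike-in scaling left 6 lower and 1 higher, at a median of -0.05. TSL1, a regulatory subunit of trehalose synthase, had 308, 335 and 311 normalized counts in 3-IAA cells, against 964, 1131 and 845 in DMSO cells, a log2 fold change of -1.62 ± 0.08 (SE). TPS2, the trehalose phosphatase, had 1376, 1497 and 1473 in 3-IAA cells, against 2559, 2938 and 2680.2 in DMSO cells. GAC1 (-1.21) and GPH1 (-1.03), which act on glycogen, had more antisense than sense reads in 3-IAA cells, at 69.3% and 66.1% of the reads, against 45.3% and 42.5% in DMSO cells. Normalized antisense counts averaged 148.7 at GAC1 and 166.5 at GPH1 in 3-IAA cells, against 130.1 and 131.7 in DMSO cells.

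Chaperone genes driven by the heat shock factor Hsf1 moved together. Of 34 tested, 30 fell and none rose, and their median was -0.49. With the spike-in scaling 11 were called lower and none higher, at a median of -0.21. HSP82, which encodes Hsp90, had 9694, 10279 and 9529 normalized counts in 3-IAA cells, against 20244, 23386 and 24068 in DMSO cells, a log2 fold change of -1.20 ± 0.07 (SE) (edgeR adjusted p = 1.78e-13). HSP104, the disaggregase, had 9428, 9221 and 8635 in 3-IAA cells, against 20022, 21455 and 20194 in DMSO cells. The polyubiquitin gene UBI4 changed by -1.14 ± 0.05 (SE) and the mitochondrial disaggregase gene HSP78 by -1.12 ± 0.06 (SE). The heat shock element, searched as TTCNNGAA or GAANNTTC, was in 65.7% of the promoters of this list and in 22.6% of all promoters. Folding genes of the endoplasmic reticulum were mostly unmoved, with 3 of 37 lower and 5 higher. The 3 were the oxidase ERO1 (-1.02), the Hsp70 KAR2 (-0.49) and the disulfide isomerase PDI1 (-0.41), in log2 units. With the spike-in scaling KAR2 (-0.21) and PDI1 (-0.13) were no longer called. Proteasome genes fell by little, with 27 of 39 lower and none higher at a median of -0.17. Under the spike-in scaling their median was 0.11 and none was called in either direction. The Rpn4 site GGTGGCAAA was in 71.8% of the proteasome promoters and 1.18% of all promoters.

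The lists of redox defense and drug efflux were among those with the lowest medians. Of 35 oxidative stress genes, 26 fell and 1 rose, with a median of -1.03 (-0.91, -1.02 and -0.90 in the 3 pairs). GPX2, a glutathione peroxidase, had 726, 649.7 and 683 normalized counts in 3-IAA cells, against 2616, 2539.5 and 3022 in DMSO cells. OYE3, an NADPH oxidoreductase, had 3446, 3270.0 and 3414 in 3-IAA cells, against 11265, 10805 and 10971 in DMSO cells, and the glutathione transferase gene GTT2 changed by -1.81 ± 0.06 (SE) on the log2 scale. Among 25 tested genes of multidrug resistance, 18 fell and 3 rose, with a median of -0.80. Relative to all tested genes this median was -0.83, and -0.50 when both strands were counted. SNQ2, an ABC transporter that exports drugs, had 9299, 9880.4 and 8948 normalized counts in 3-IAA cells, against 30350.3, 33448 and 31645 in DMSO cells, and was among the most abundant nsRNAs. Its log2 fold change was -1.76 ± 0.07 (SE) (edgeR adjusted p = 1.63e-17). The efflux pump genes AZR1 (-2.13), ATR1 (-2.04) and QDR2 (-1.88) and the lipid transfer gene PDR16 (-1.79) fell alongside, in log2 units. Antisense reads over QDR2 were 41.7% in 3-IAA cells and 11.5% in DMSO cells, at averages of 57.2 and 39.4 normalized counts. The Yap1 site, TTAGTAA or TTACTAA, was in 20.6% of the oxidative stress promoters, 14.4% of those of genes downregulated at least 2-fold and 7.5% of all promoters.

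Genes of cell division and cell separation fell as a broad group. RNR1, the large subunit of ribonucleotide reductase, had 483, 603 and 579.8 normalized counts in 3-IAA cells, against 2352, 2617 and 2603 in DMSO cells, a log2 fold change of -2.19 ± 0.06 (SE) (edgeR adjusted p = 1.56e-20). Of 35 cyclin and G1/S genes, 28 fell and none rose (median -0.67), among them the cyclin genes PCL1 (-2.10), CLB6 (-1.82) and CLB1 (-1.63). Antisense reads over CLB6 were 68.8% in 3-IAA cells and 35.0% in DMSO cells, at averages of 66 and 57 normalized counts. Genes of daughter cells and cell separation fell in 19 of 20 cases and rose in none (median -0.91). CTS1, the chitinase that parts mother and daughter, had 739.6, 852 and 676 normalized counts in 3-IAA cells, against 2102, 2098 and 2127 in DMSO cells. DSE4 (-1.43) and SUN4 (-1.12), which also act in separation, and AMN1, which acts in mitotic exit (-1.10), fell as well. All 8 core histone genes and the linker histone gene fell, 9 of 11 in the list, whereas the histone variant genes HTZ1 (-0.13) and CSE4 (-0.12) were not called. HTB2 had 553, 508 and 578 normalized counts in 3-IAA cells, against 1300.3, 1167 and 1356 in DMSO cells, and HTA2 (-1.06), HTA1 (-1.02) and HHT2 (-0.97) fell by similar amounts. The TATA element was in 81.8% of the histone promoters. Under the spike-in scaling 18 cyclin and G1/S genes, 12 daughter-cell genes and 9 histone genes were called lower.

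Of 7 genes that mark a-cells, 6 were tested and all 6 fell, with log2 fold changes of -1.45 to -0.65. The other, BAR1, had too few reads to be tested. MFA1, a precursor of the a-factor pheromone, had 139, 127 and 126 normalized counts in 3-IAA cells, against 366, 305 and 354 in DMSO cells. The alpha-factor receptor gene STE2 had 2519, 2317 and 2309 in 3-IAA cells, against 4609, 4547 and 4542 in DMSO cells, and AGA2, an adhesin, and MFA2 changed by -1.45 ± 0.09 (SE) and -1.19 ± 0.08 (SE). The alpha-cell genes STE3 (0.23) and SAG1 (0.18) were not called. In the list of mating and pheromone genes, 21 of 33 fell and 3 rose, or 10 and 3 with the spike-in scaling. PRM4, a pheromone-regulated membrane protein, changed by -2.03 ± 0.14 (SE), with antisense reads at 74.9% of the reads over it in 3-IAA cells and 38.4% in DMSO cells. Normalized antisense counts over PRM4 averaged 121.3 in 3-IAA cells and 107 in DMSO cells.

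The cell wall and the membrane lipids formed a further group. Of 26 tested cell wall mannoprotein genes, 17 fell and 2 rose (median -0.55), led by PST1 (-1.57), CIS3 (-1.53), CWP1 (-1.45) and TIR4 (-1.42). Of 30 genes that remodel glucan and chitin, 22 fell and 1 rose (median -0.59). The glucanase gene EXG1 had 1914, 1888 and 1936 normalized counts in 3-IAA cells, against 6014, 6211 and 6805 in DMSO cells, and the glucanosyltransferase gene GAS1 had 1605, 1737 and 1797 in 3-IAA cells, against 4587, 4881 and 4942 in DMSO cells. Of 31 tested ergosterol genes, 23 fell and 3 rose (median -0.45). ERG3, the sterol desaturase, had 271, 278 and 266 normalized counts in 3-IAA cells, against 1130.2, 1037 and 1149.9 in DMSO cells. ERG28 (-1.70) and ERG5 (-1.68) fell as well. The 2 sterol acyltransferase genes, which store sterol as esters, went in opposite directions, with ARE2 at -1.94 ± 0.07 (SE) and ARE1 at 0.73 ± 0.09 (SE) on the log2 scale. ARE1 overlaps a gene on the other strand, YCR050C, by 298 bases. Fatty acid and sphingolipid genes fell in 19 of 30 cases and rose in 2, among them the desaturase gene OLE1 (-1.47), the synthase gene FAS1 (-1.25) and SUR1 (-1.51), which acts in sphingolipid synthesis. This list had 9 lower and 4 higher genes and a median of -0.02 with the spike-in scaling. That scaling also gave 10 lower genes among the mannoproteins, 13 among the glucan and chitin genes and 14 among the ergosterol genes.

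Nutrient uptake and sulfur and iron use fell unevenly. SUL1, a sulfate permease, had 20.5, 23.4 and 20.4 normalized counts in 3-IAA cells, against 144, 144 and 123 in DMSO cells. Antisense reads over it were 91.6% in 3-IAA cells and 59.9% in DMSO cells, at averages of 233 and 204.7 normalized counts. Of 33 genes of methionine and sulfur assimilation, 24 fell and 5 rose (median -0.67). MET3, which activates sulfate, had 819, 863 and 876 normalized counts in 3-IAA cells, against 2539, 2403 and 2506 in DMSO cells, and STR3 (-1.57) and GSH1, of glutathione synthesis (-1.48), fell similarly. In the iron regulon 24 of 33 fell and 2 rose (median -0.41), or 13 and 3 with the spike-in scaling, led by the ferric reductase genes FRE4 (-2.02) and FRE1 (-1.78) and the heme oxygenase gene HMX1 (-1.45). The increases included YFH1, frataxin of iron-sulfur cluster assembly (0.67). At FRE4 antisense reads were 32.9% in 3-IAA cells and 6.4% in DMSO cells, at averages of 119.8 and 67.2 normalized counts. Of 32 genes for uptake of amino acids and other nitrogen sources, 20 fell and 3 rose (median -0.48), or 13 and 5 with the spike-in scaling. FCY2, a purine and cytosine permease, had 1064, 993 and 947 normalized counts in 3-IAA cells, against 3946, 3471 and 3816 in DMSO cells. The amino acid permease genes GNP1 (-1.64), DIP5 (-1.60) and AGP1 (-1.50) were lower, whereas the peptide transporter gene OPT2 (0.48) and the proline permease gene PUT4 were higher. At DIP5 antisense reads were 29.2% in 3-IAA cells and 4.85% in DMSO cells, at averages of 122.5 and 46.5 normalized counts. Amino acid synthesis was divided, with 31 of 73 genes lower and 21 higher, and with a median of -0.11 that was 0.17 with the spike-in scaling. LYS20 (-1.62), BAT2 (-1.36), GLY1 (-1.25) and ASN1 (-1.25) led the decreases, and THR1 (0.53) and HIS2 (0.52) the increases, in log2 units.

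**Figure D3:**
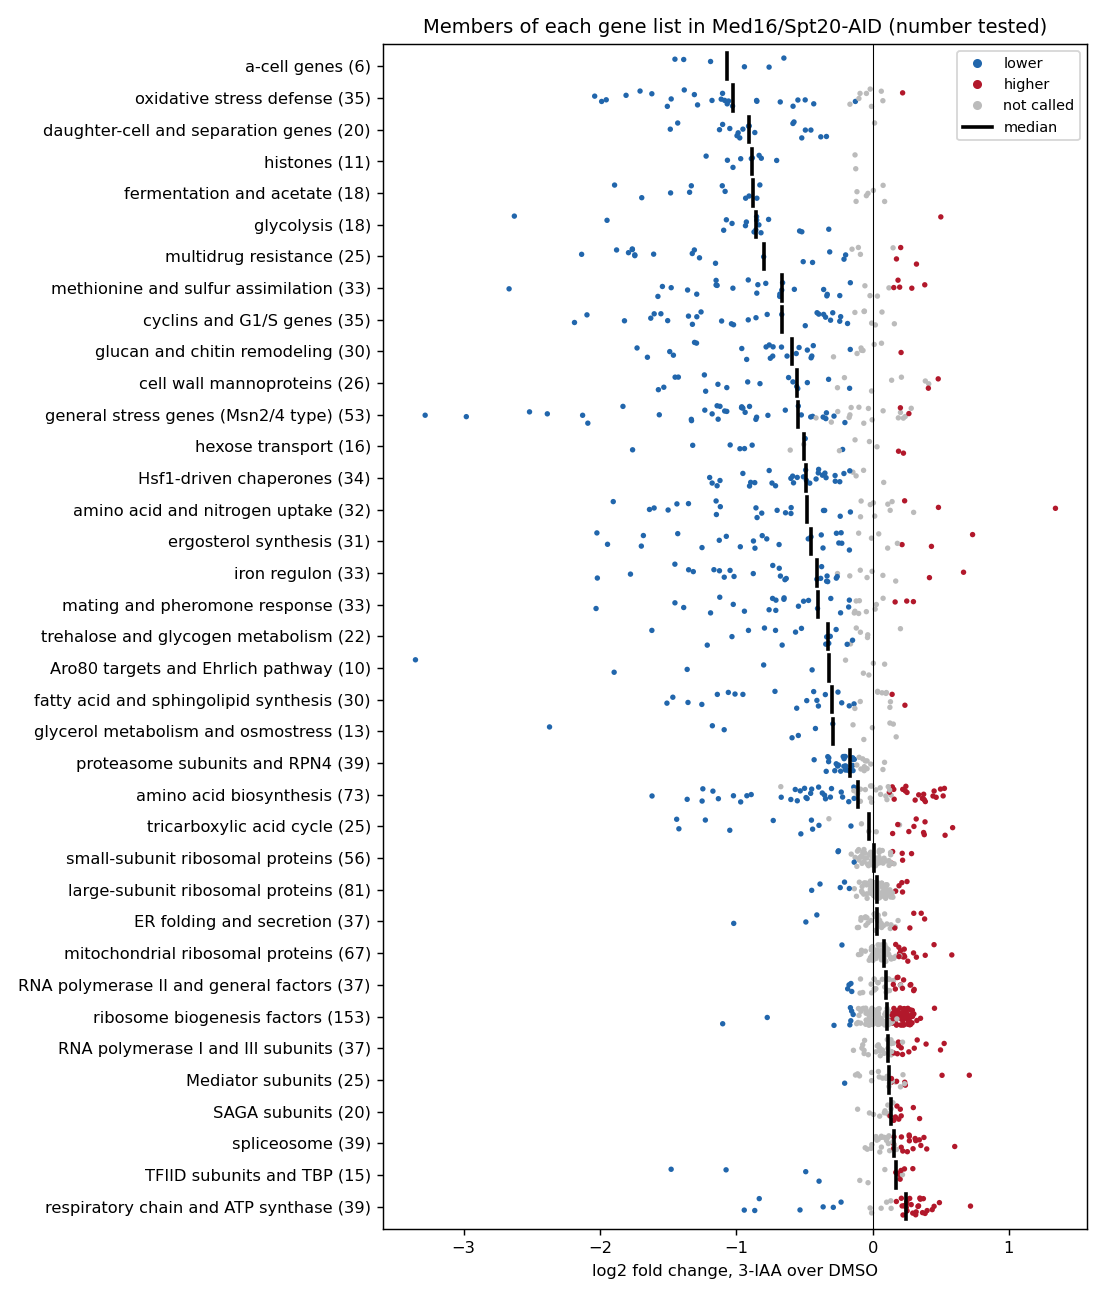
Each row is 1 of the 37 gene lists described, with the number of its tested members in brackets, and each point is 1 member at its log2 fold change of 3-IAA over DMSO. Blue points are downregulated, red points upregulated and gray points not called, and the black bar is the median of the list. Medians run from -1.06 for the a-cell genes at the top to 0.25 for the respiratory chain at the bottom, with the ribosomal protein genes close to 0.

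The largest increase was that of SPS4, a gene normally used in sporulation. It had 194, 197 and 189 normalized counts in 3-IAA cells, against 12.5, 10.8 and 13.9 in DMSO cells, where each library held 10 to 16 reads. Its log2 fold change was 3.93 ± 0.18 (SE) (edgeR adjusted p = 2.84e-16), a 15.3-fold increase. PUT4 had 1442, 1527 and 1499.9 normalized counts in 3-IAA cells, against 560.1, 648 and 559 in DMSO cells, a log2 fold change of 1.34 ± 0.05 (SE) (edgeR adjusted p = 2.96e-17). Among genes that averaged at least 50 counts and had one sign in every pair, the next 10 increases were 1.70 to 2.07-fold. YPR196W (1.05), a putative activator of the maltose type, and FLO11 (1.01), a cell surface adhesin with 29 to 40 reads per DMSO library, were followed by ACH1, TDA6, SHC1 and BIO3. ACH1, a mitochondrial enzyme of acetyl-CoA metabolism, had 305, 331 and 295 normalized counts in 3-IAA cells, against 164, 143 and 172 in DMSO cells. BIO3, of biotin synthesis, had 143, 131 and 136 in 3-IAA cells, against 71.3, 77.9 and 64.1 in DMSO cells. TDA6 changed by 0.95 ± 0.14 (SE) and SHC1, known from chitin synthesis in spores, by 0.95 ± 0.19 (SE). The last 4 were SWF1, a palmitoyltransferase (0.86), MIC10, which shapes mitochondrial cristae (0.84), MDM36, which acts in mitochondrial distribution (0.81), and AYT1, an acetyltransferase (0.76). MDM36 had 999.5, 985 and 970.0 normalized counts in 3-IAA cells, against 529, 605 and 551 in DMSO cells, and the groups did not overlap.

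**Figure D4:**
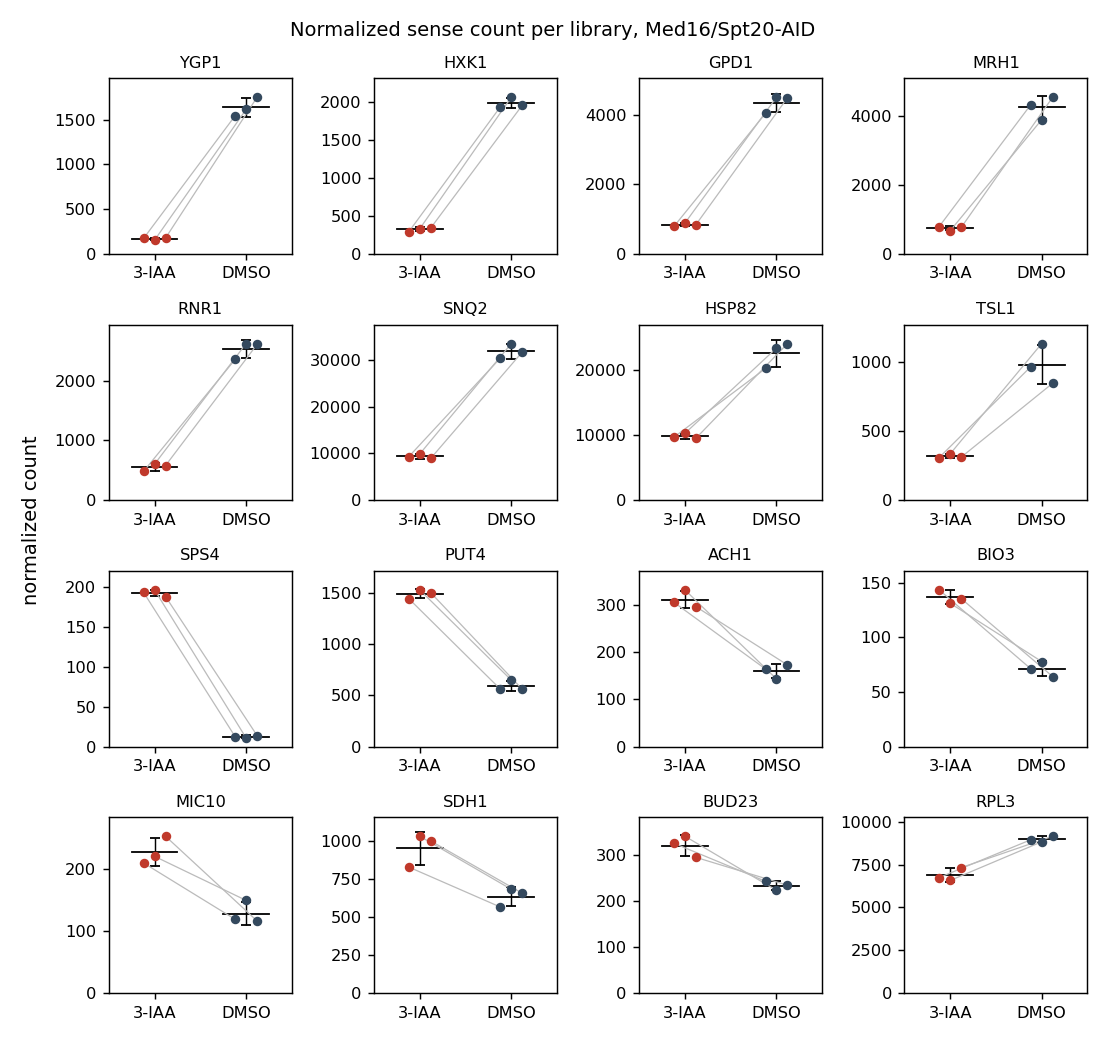
Normalized sense count of 16 genes in each library of Med16/Spt20-AID, with 3-IAA in red on the left and DMSO in dark blue on the right of each panel. Gray lines join the same-numbered pairs, and black bars give the mean ± SD of 3 libraries. The 2 upper rows hold genes that fell, from YGP1 to TSL1, and the 2 lower rows genes that rose, from SPS4 to BUD23, with RPL3, which fell, at the end.

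Most mitochondrial energy genes rose. Of 39 nuclear genes of the respiratory chain and ATP synthase, 26 rose and 7 fell, with a median log2 fold change of 0.25 (0.18, 0.27 and 0.28 in the 3 pairs). ATP3, the gamma subunit of ATP synthase, had 1551, 1469 and 1592 normalized counts in 3-IAA cells, against 1085, 1077 and 1119.6 in DMSO cells, and ATP15 (0.45) and the cytochrome oxidase gene COX4 (0.44) rose as well. INH1, an inhibitor of ATP synthase, had the largest increase of the list at 0.72 ± 0.12 (SE). Antisense reads were 43.2% of those over INH1 in 3-IAA cells and 74.9% in DMSO cells, and its change was -0.46 when both strands were counted. COX5B, the hypoxic form of a cytochrome oxidase subunit (-0.94), CYC1, the main cytochrome c (-0.86), and NDE1, an external NADH dehydrogenase (-0.83), fell. Over COX5B antisense reads were 47.5% in 3-IAA cells and 20.8% in DMSO cells, at averages of 113.3 and 61.3 normalized counts. The tricarboxylic acid cycle was divided, with 10 of 25 genes lower and 10 higher, and with a median of -0.03 that was 0.25 with the spike-in scaling. Aconitase and isocitrate dehydrogenase genes fell, with IDH1 at -1.44, ACO1 at -1.42 and IDH2 at -1.23, whereas the succinate dehydrogenase genes SDH1 and SDH2 rose. SDH1 had 826, 1028 and 998 normalized counts in 3-IAA cells, against 564, 680.3 and 654 in DMSO cells, and SDH2 had 1447, 1376 and 1431 in 3-IAA cells, against 954, 995 and 991 in DMSO cells. ACO1, aconitase, had 799, 806 and 801 in 3-IAA cells, against 2163, 2140.4 and 2140.4 in DMSO cells. Of 67 mitochondrial ribosomal protein genes, 16 (23.9%) rose and 1 fell, a share of increases near the 21.7% of all tested genes, with MRPL4 at 0.58.

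Genes that build the gene expression machinery were near or slightly above the typical gene. The 56 small-subunit and 81 large-subunit ribosomal protein genes had medians of 0.01 and 0.03, with 5 higher in each list and 3 and 5 lower. RPL3 had 6741, 6572 and 7322 normalized counts in 3-IAA cells, against 8949, 8832 and 9154 in DMSO cells (-0.39), and was not called with the spike-in scaling. RPP2A, of the ribosomal stalk, rose by 0.25 ± 0.06 (SE), a call lost without replicate 3. Of 153 ribosome biogenesis genes, 62 rose and 8 fell, with a median of 0.11. BUD23, an rRNA methyltransferase, had 325, 340.3 and 294 normalized counts in 3-IAA cells, against 243, 223 and 234 in DMSO cells. The 8 that fell included the RNA helicase gene DBP2 (-1.10) and the nucleolin-like gene NSR1 (-0.77). The PAC motif GATGAG was in 89.5% of the promoters of this list and 20.3% of all promoters, and the RRPE motif AAAATTTT in 75.2% and 8.99%. Subunits of RNA polymerases I and III rose in 12 of 37 cases (32.4%, against 21.7% of all tested genes) and fell in none. RPC17 (0.52) and RPC34 (0.50) were in front. Of 39 spliceosome genes, 18 rose and none fell, with SMX3 at 0.60.

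Genes of TBP and its negative regulators fell, whereas genes of the complexes that deliver TBP were level or rose. MOT1, an ATPase that removes TBP from DNA, had 313, 402 and 334 normalized counts in 3-IAA cells, against 873, 1043 and 1005 in DMSO cells, a log2 fold change of -1.48 ± 0.07 (SE) (edgeR adjusted p = 2.35e-16). NCB2 and BUR6, the subunits of the repressor NC2 that binds TBP, changed by -1.07 ± 0.11 (SE) and -0.49 ± 0.07 (SE), and SPT15, which encodes TBP, by -0.39 ± 0.06 (SE). The other 11 genes of the list of TFIID and TBP regulators held 7 that rose, such as TAF3 (0.30), and none that fell. BUR6 (-0.21) and SPT15 (-0.11) were not called with the spike-in scaling. Of 20 SAGA genes, 9 rose and none fell, with SPT8 (0.34) and HFI1 (0.30) in front. Of 25 Mediator genes, 7 rose, led by SRB2 (0.71) and the tail subunit gene PGD1 (0.51), and 1 fell. Of 37 genes of RNA polymerase II and the general factors, 11 (29.7%) rose and 4 fell. The shares of increases in these last 2 lists were not far from the 21.7% of all tested genes. The 22 lists not described here had medians between -0.41 and 0.20.

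The response was then set beside that of Spt20-AID cells, in which Med16 is intact, through the interaction term of the same edgeR fit. The change was more negative in Med16/Spt20-AID for 726 genes (12.8% of those tested) and more positive for 764 genes (13.4%). With the spike-in scaling 104 and 20 genes were called. For the Hsf1-driven chaperones the median log2 fold change was -0.49 in Med16/Spt20-AID and 0.09 in Spt20-AID, and the difference was called lower for 29 of 34 genes, or 11 with the spike-in scaling. The general stress genes had medians of -0.54 in Med16/Spt20-AID and -0.06 in Spt20-AID, with 24 of 53 called lower, or 13 with the spike-in scaling. Trehalose and glycogen genes had medians of -0.33 in Med16/Spt20-AID and 0.06 in Spt20-AID, with 15 of 22 called lower, or 4 with the spike-in scaling. Oxidative stress genes had medians of -1.03 in Med16/Spt20-AID and -0.44 in Spt20-AID, with 19 of 35 called lower, or 8 with the spike-in scaling. Single genes with a wide gap included HXK1, at -2.63 in Med16/Spt20-AID and -0.31 in Spt20-AID, and ALD6, at -1.34 in Med16/Spt20-AID and 0.08 in Spt20-AID. HSP104 was at -1.18 in Med16/Spt20-AID and at 0.47 in Spt20-AID. Some genes also differed between the strains in DMSO cells, so a gap in change need not be a gap in level after 3-IAA. TSL1 averaged 980 normalized counts with DMSO and 318 with 3-IAA in Med16/Spt20-AID, against 243 and 221 in Spt20-AID. HSP104 averaged 20557 with DMSO and 9095 with 3-IAA in Med16/Spt20-AID, against 10910 and 15078 in Spt20-AID. The part of the DMSO levels in the differences was not tested.

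In the other direction, ribosomal protein genes were near 0 in Med16/Spt20-AID and below it in Spt20-AID on the TMM scale. Their medians were 0.03 in Med16/Spt20-AID and -0.43 in Spt20-AID for the large subunit, and 0.01 in Med16/Spt20-AID and -0.40 in Spt20-AID for the small subunit, and 78 of 81 and 52 of 56 differences were called higher. For ribosome biogenesis genes 125 of 153 were called higher and for the respiratory chain 25 of 39. With the spike-in scaling the median differences of these 4 lists were still positive, at 0.37, 0.33, 0.27 and 0.24, but only 1 gene, of the respiratory chain, was called. SPS4 was at 3.93 in Med16/Spt20-AID and -1.23 in Spt20-AID, and PUT4 at 1.34 in Med16/Spt20-AID and -1.05 in Spt20-AID, so both genes went in opposite directions in the 2 strains. OPT2 did so as well, at 0.48 in Med16/Spt20-AID and -1.46 in Spt20-AID. In Spt20-AID, SPS4 averaged only 5.91 normalized counts with 3-IAA and 14.3 with DMSO, so its fall there rests on few reads. PUT4 averaged 589 normalized counts with DMSO in Med16/Spt20-AID and 135 in Spt20-AID. TDH1 and CWP1 fell in both strains but further in Spt20-AID, with differences of 0.97 and 1.04. Glycolysis as a whole had medians of -0.85 in Med16/Spt20-AID and -0.84 in Spt20-AID. Multimapping reads were 53.5 to 54.0% in 3-IAA libraries of Med16/Spt20-AID and 43.5 to 44.8% in those of Spt20-AID, and the part of this in the differences was not tested.

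**Figure D5:**
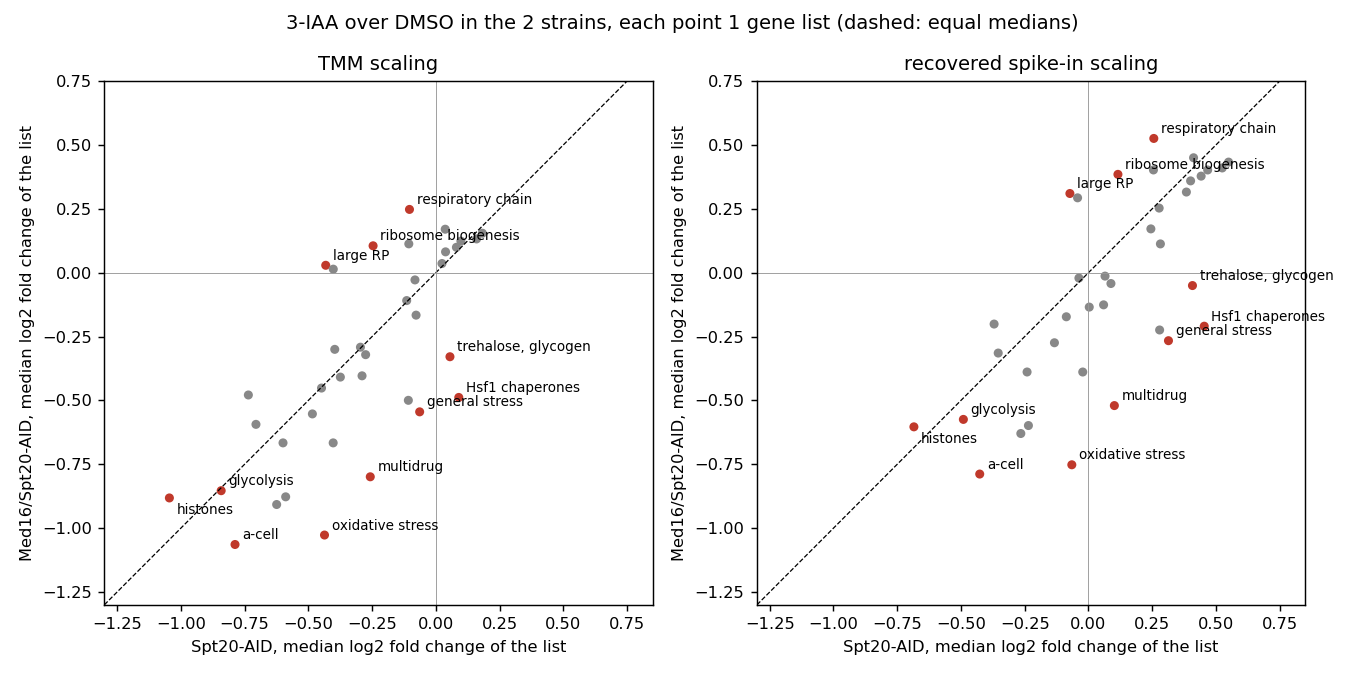
Each point is 1 of the 37 gene lists, with its median log2 fold change of 3-IAA over DMSO in Spt20-AID on the horizontal axis and in Med16/Spt20-AID on the vertical axis. The left panel uses TMM scaling and the right panel the recovered spike-in scaling, and the dashed line marks equal medians. The general stress, Hsf1 chaperone, trehalose and glycogen, multidrug and oxidative stress lists lie below the line in both panels, and the large-subunit ribosomal proteins (large RP), ribosome biogenesis and the respiratory chain lie above it.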

How the data were processed

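The counts of sense reads per gene were used as the authors deposited them, from 4tU-labeled RNA aligned to sacCer3 with STAR 2.6.1a per the labels. The annotation version is not given in the sources used here. Of 6692 gene IDs, 6008 matched the R64 annotation. Genes with a mean of at least 10 sense counts were tested, 5690 in all. TMM factors and edgeR 4.0.16 (R 4.3.3) quasi-likelihood tests with Benjamini-Hochberg adjustment were used on 12 libraries, with each strain and replicate as a block, since each culture was split between 3-IAA and DMSO. Deviations of same-numbered libraries correlated at 0.445, 0.449 and 0.212 over 5278 genes. Replicates were labelled biological. On simulated data with 200 changed genes, 90% of 2-fold and 58% of 1.5-fold changes were recovered for the comparison of 3-IAA with DMSO, and 70% and 20% for the difference from Spt20-AID. The simulation set the spread between libraries (dispersion) to 0.02 for every gene and changed far fewer genes than were called here. Its rates therefore do not give the power of the test on these data. *S. pombe* spike-in factors were recovered from the study's supplementary expression table and served as an alternative. DESeq2 1.42.0, other filters, both-strand counts and leaving out replicates were further alternatives. Named genes were the 12 largest changes in each direction that had one sign in every pair and averaged 50 counts or more, up to 4 called members per direction in each described list, and the depleted subunits. The members and the 59 gene lists were chosen with earlier results of these data known.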

Additional observations from a re-analysis of the deposited data

Results flagged for a closer look

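Of the 138 named genes, 91 had a log2 fold change of 3-IAA over DMSO in Med16/Spt20-AID that differed from that in Spt20-AID, by the interaction term of the edgeR fit at an adjusted p under 0.05. The value after each gene is the change in Med16/Spt20-AID minus the change in Spt20-AID, on the log2 scale with TMM scaling. The differences furthest below 0 were those of HXK1 (-2.32), HSP104 (-1.65), YGP1 (-1.61), HSP78 (-1.48), TSL1 (-1.48), ALD6 (-1.42), YRO2 (-1.37), OSI1 (-1.33), SUL1 (-1.32), GPD1 (-1.27), HSP82 (-1.24), ARO10 (-1.23), SNQ2 (-1.20), LYS20 (-1.19), ATR1 (-1.19), FRE4 (-1.19), STR3 (-1.17), HXT7 (-1.12), MRH1 (-1.05), OYE3 (-1.05), ARO9 (-1.05), GPX2 (-1.05) and HXT3 (-1.01). Lesser negative differences were found for CRF1 (-0.99), YCR102C (-0.99), DDR48 (-0.96), YLR297W (-0.94), TPS2 (-0.89), ERO1 (-0.88), ALD4 (-0.81), ACO1 (-0.80), GAC1 (-0.75), GLY1 (-0.70), ADH6 (-0.69), KAR2 (-0.68), PDR16 (-0.61), ARE2 (-0.59), MFA2 (-0.58), UBI4 (-0.57), SUR1 (-0.56), HXT1 (-0.54), ASN1 (-0.53), IDH2 (-0.53), DSE4 (-0.52) and CTS1 (-0.52). The smallest negative differences were those of RNR1 (-0.49), EXG1 (-0.48), PCL1 (-0.45), FRE1 (-0.43), AZR1 (-0.40), HMX1 (-0.40), AGA2 (-0.38), PST1 (-0.32), AMN1 (-0.31), MET3 (-0.30), NDE1 (-0.29), GNP1 (-0.28), STE2 (-0.27), GTT2 (-0.26) and GSH1 (-0.24). Positive differences below 0.7 were found for SDH1 (0.25), YFH1 (0.34), HTA2 (0.34), ATP3 (0.35), SWF1 (0.37), MFA1 (0.38), RPL3 (0.40), THR1 (0.43), NSR1 (0.48), ARE1 (0.49), ATP15 (0.50), DIP5 (0.51), RPC34 (0.52), ACH1 (0.52), PYK2 (0.55), SMX3 (0.62) and BUR6 (0.65). The widest positive differences were those of RPC17 (0.70), SRB2 (0.72), COX4 (0.73), YPR196W (0.76), MIC10 (0.77), RPP2A (0.87), BUD23 (0.87), TDH1 (0.97), CWP1 (1.04), INH1 (1.11), TDA6 (1.20), OPT2 (1.94), PUT4 (2.39) and SPS4 (5.16). With the spike-in scaling 104 genes were called more negative and 20 more positive over all tested genes, so many of these differences rest on the TMM scale. Levels in DMSO cells also differed between the strains for some of these genes, such as TSL1 and HSP104, and SPS4 had few reads in Spt20-AID.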

How the results depend on the processing

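The spike-in scaling called 534 genes downregulated and, for the difference from Spt20-AID, 104 lower and 20 higher. A test beyond 1.5-fold called 465 and 14 genes in Med16/Spt20-AID and 57 and 14 for the difference. Without the replicate block, 1178 genes were downregulated and 791 upregulated, and 404 and 494 differences were called. DESeq2 called 1115 genes downregulated and 547 upregulated, and 363 and 435 differences. Leaving out 1 replicate gave 1144 to 1258 downregulated and 707 to 935 upregulated genes, with 738 without replicate 1 and 707 without replicate 3. It gave 478 to 804 lower and 594 to 883 higher differences, with the lowest count, 478, without Spt20-AID replicate 1. With counts of both strands INH1 reversed to -0.46. List medians relative to all tested genes moved with both strands to -0.44 for mannoproteins, -0.64 for cyclins, -0.90 for daughter-cell genes, -0.59 for glucan and chitin, -0.22 for glycerol, -0.12 for hexose transport, -0.40 for mating, -0.53 for methionine, -0.50 for multidrug resistance, -0.94 for oxidative stress and 0.11 for the spliceosome. Counting only bases before the gene start, the stress response element was in 14.7% of upregulated and 19.0% of all tested genes. Of 137 called genes that were named, 104 kept their direction and call under all 14 alternatives, and a test beyond 1.5-fold took the call from most of the others. The block changed the call of no other named gene than SPT20. The causes of these changes were not tested. With 3 replicates, and few reads at genes such as SPS4 in DMSO cells, small changes of low genes were not detectable.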
